A study of Mus musculus with 6 samples.

Results

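The Hox genes of the clusters a, b, c and d were examined in C2C12 cells, a mouse myoblast line derived from adult leg muscle. They were defined as the protein-coding genes whose symbol is Hox followed by a cluster letter and a number from 1 to 13. The Hox genes described here are 38 of 24809 genes in the table, namely 10 in cluster a, 10 in cluster b, 9 in cluster c and 9 in cluster d. Cells overexpressing Msx1 (3 libraries) were compared with control cells (3 libraries) by RNA sequencing. Msx1 encodes a homeobox transcription factor of undifferentiated mesenchyme, and the comparison asks which transcripts differ when it is raised in myoblasts. The labels call the genotypes control and Msx1-overexpressing, and the table heads the control columns as vector. The sources used here do not give the promoter that drives Msx1, whether the cells were a clone or a pool, or the age and state of the cultures at harvest. Nothing says whether replicates were separate cultures, so p-values describe the spread among these libraries, which may be technical.

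Hox proteins are homeodomain transcription factors. Within each cluster the genes are numbered by paralog group, in the order in which they are switched on along the embryo from head to tail and, in limb buds, from shoulder to digits. Cells taken from adult tissue often keep the Hox pattern of the region they came from, and Polycomb and trithorax proteins are known for holding the clusters silent or active. Hox proteins bind DNA together with TALE homeodomain cofactors of the Pbx, Meis and Pknox families.

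Levels are FPKM summed over the transcripts of a gene and are per length, so they can be set side by side between genes. Changes are differences of log2(FPKM + 1), Msx1 minus control, which understate the change of low genes. A gene was tested when its mean over the 6 libraries was at least 0.5 FPKM and was called at an adjusted p under 0.05 from limma with Benjamini-Hochberg adjustment over all 12371 genes tested. As a rough estimate, libraries held from 18.9 to 24.0 M fragments (M, mega), and no counts were used. Msx1 itself read 7.99, 7.13 and 7.54 FPKM in control libraries 1 to 3, against 1004, 943.7 and 912.1 FPKM with overexpression, a 126-fold ratio. No library went against its label. Its log2 change was 6.80 (SE 0.06, adjusted p = 1.02e-09), and an exact permutation test (two-sided) reached p = 0.1, its lowest possible value for 3 libraries a group. Of the genes marking myoblasts, Myod1 had means of 23.3 FPKM (control) and 21.4 FPKM (Msx1) and Des of 140.1 and 116 FPKM, so defining markers of the labelled cell type are present. The pan-blood gene Ptprc was listed at 0 in every library.

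The results turn most on Hoxa10, which has transcripts from separate starts, and the 250 bases before each start are shown with a silent gene of the same paralog group for comparison. The sequences are RefSeq's for the build GRCm38.p6, read 5′ to 3′ on the strand of the gene, with CG dinucleotides in capitals. Vertebrate Hox clusters are known to be rich in CpG islands. The downstream Hoxa10 start gives the long reading frame (NM_008263, chr6:52234940-52235189, minus strand), and the upstream start gives the short one (NM_001122950, chr6:52240855-52241104, minus strand). The Hoxd10 window is chr2:74691641-74691890 on the plus strand.
Hoxa10, downstream start: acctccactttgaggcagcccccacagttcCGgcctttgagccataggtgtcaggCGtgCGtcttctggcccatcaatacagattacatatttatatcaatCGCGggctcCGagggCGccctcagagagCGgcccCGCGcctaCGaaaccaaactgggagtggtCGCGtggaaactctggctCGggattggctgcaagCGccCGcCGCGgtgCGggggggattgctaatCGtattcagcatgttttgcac
Hoxa10, upstream start: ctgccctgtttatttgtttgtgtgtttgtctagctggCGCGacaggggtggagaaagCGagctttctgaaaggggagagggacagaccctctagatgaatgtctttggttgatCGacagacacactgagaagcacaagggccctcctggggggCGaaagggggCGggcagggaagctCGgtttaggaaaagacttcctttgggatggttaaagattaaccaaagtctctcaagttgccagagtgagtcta
Hoxd10: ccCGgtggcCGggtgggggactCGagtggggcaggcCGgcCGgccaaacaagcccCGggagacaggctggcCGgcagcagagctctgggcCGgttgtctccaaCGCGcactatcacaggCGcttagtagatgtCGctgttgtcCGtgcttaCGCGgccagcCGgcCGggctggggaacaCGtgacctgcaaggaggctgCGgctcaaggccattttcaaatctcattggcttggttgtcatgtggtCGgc
The downstream Hoxa10 window holds 20 CG dinucleotides and the upstream one 7, while the Hoxd10 window, before a gene listed at 0 in every library, holds 20. Promoters of 22 of the 38 Hox genes were matched (24 windows of 250 bases), with 9 genes each in clusters a and d, 3 in cluster b and 1 in cluster c. The median number of CG dinucleotides was 15.5 over the 10 windows of cluster a, which is transcribed here, and 12.5 over the 10 windows of cluster d, which is not. Over all 32851 promoter windows of that length the median was 6. The median GC content was 57.0% in cluster a, 58.0% in cluster d and 52.4% over all windows.

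Motifs were searched on both strands of the same windows, with overlaps between them allowed. TAATTG, the core of Msx1 binding sites, was in 1 of the 24 Hox windows and in 7.17% of all windows. CANNTG, the E-box of MyoD and related factors, was in 17 Hox windows and in 66.2% of all. TGATNNAT, a joint Hox and Pbx sequence, was in 4 Hox windows and in 7.68% of all. Neither Hoxa10 window holds any of them, and the Hoxd10 window holds CANNTG. A match is a run of letters and is not evidence of binding.

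C2C12 cells transcribed clusters a and c and had almost no transcript of clusters b and d, in both groups. The cluster a genes (chromosome 6, 52162417 to 52260880, GRCm38) summed to 74.1 ± 3.92 FPKM in control cells (SD, n = 3) and to 84.97 ± 0.745 FPKM in Msx1 cells (n = 3). Cluster c (chromosome 15, 102921131 to 103036856) summed to 102 ± 0.687 FPKM in control against 97.8 ± 0.634 FPKM in Msx1 cells. In both clusters the levels were highest at groups 10 and 11, as the plot of every gene by paralog group shows. The group 11 gene of cluster a is Hoxa11. Its level, and so the cluster a sum, may include reads of its antisense partner Hoxa11os, which cannot be told apart here. Groups 9 to 13 held 58.0 of the cluster a sum and 81.7 of the cluster c sum in control cells, in FPKM.

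**Figure D1:**
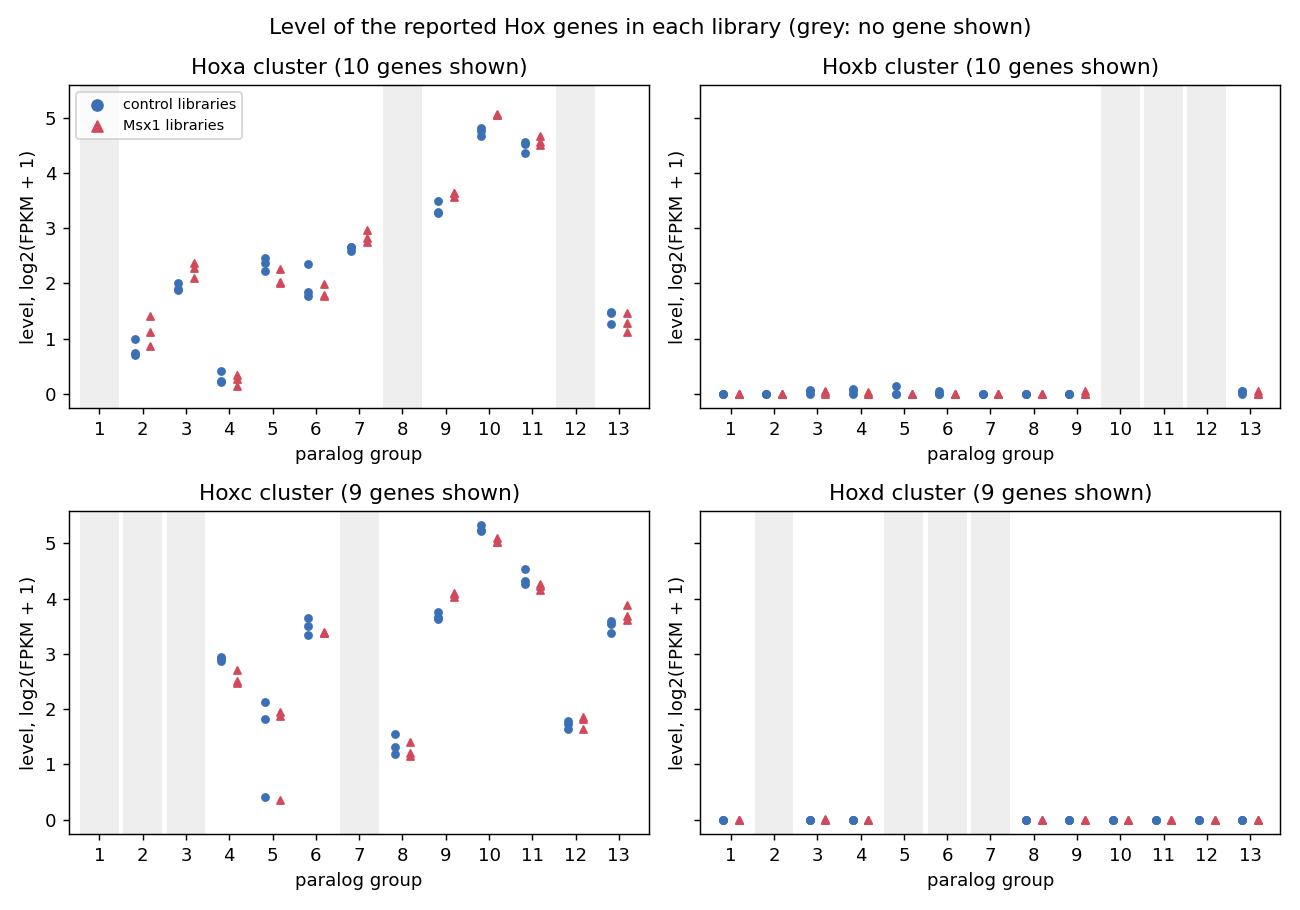
Level of each of the 38 Hox genes as log2(FPKM + 1), by cluster (panels) and paralog group (horizontal axis), with 1 point per library (circles, control; triangles, Msx1). Clusters a and c are transcribed with their highest levels at groups 10 and 11, while no library exceeds 0.103 FPKM for any gene of clusters b and d.

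Hoxc10, a gene of hindlimb and lumbar identity, was the most abundant Hox transcript in control cells. It stood at 36.3, 37.0 and 39.1 FPKM in control libraries 1 to 3 and at 31.4, 33.1 and 31.4 FPKM in Msx1 libraries 1 to 3. All 3 Msx1 libraries lay below all 3 control libraries. Its mean over the libraries was above that of 81.1% of the genes tested. Hoxa10, which patterns the lumbar skeleton and the uterus, came next with 24.4, 26.98 and 26.1 FPKM in control and 32.1, 32.4 and 32.2 FPKM in Msx1 libraries. Every Msx1 library lay above every control library, and Hoxa10 and Hoxc10 stood at the same level in Msx1 cells. Hoxa11, needed for the forearm and lower leg bones, had 21.2 ± 1.63 FPKM (control) and 22.8 ± 1.35 FPKM (Msx1). Its cluster c paralog Hoxc11, a hindlimb gene, stood at 19.7 ± 2.14 and 17.5 ± 0.613 FPKM.

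The next levels belonged to Hoxc9, a determinant of thoracic motor neuron identity, at 11.9 FPKM in control, and to Hoxc13, which acts in hair and nail, at 10.3 FPKM. Hoxc6, of the thoracic and forelimb level, was also at 10.3 FPKM, and Hoxa9, of lumbar patterning and blood stem cells, at 9.25 FPKM. The spreads of Hoxc13, Hoxc6 and Hoxa9 overlap, so their order is not resolved. Control libraries of Hoxc9 (11.4 to 12.6 FPKM) and Hoxc6 (9.08 to 11.5 FPKM) also overlap, so the order of that pair is not resolved either. Hoxa2, the selector gene of the second pharyngeal arch, was low, at 0.759 FPKM in control cells. Hoxa13, of the digits, was also low, at 1.65 FPKM.

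Of the 38 genes, 18 passed the level filter and 20 did not. All 18 had a mean of at least 0.5 FPKM in each group, so none entered through 1 group alone. They were 9 of the 10 genes of cluster a and all 9 of cluster c. The gene of cluster a left out was Hoxa4, at 0.219 ± 0.0949 FPKM in control against 0.188 ± 0.0818 FPKM in Msx1 cells. In cluster b, Hoxb1, Hoxb2, Hoxb7 and Hoxb8 were listed at 0 in all libraries, and 13 of the cluster's 60 values were above 0. Its highest gene by a single value was Hoxb5, listed at 0 in 5 libraries and at 0.103 FPKM in control library 2. In cluster d, 8 of the 9 genes were listed at 0 throughout, and the remaining one, Hoxd3, had a single value above 0, of 0.000415 FPKM in Msx1 library 3. The zeros were not shared by genes that every cell uses: of 20 such genes looked up none was at 0, and the lowest value was 12.6 FPKM. Since these genes are abundant, they do not show whether genes at a low level could be listed at 0. Depth is known only as an estimate, so no limit on the true level of the silent genes is given.

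Most genes around the silent clusters b and d were transcribed. Each cluster was given its 5 nearest protein-coding genes on either side, by RefSeq position. Of the 10 neighbours of cluster b, 7 had a mean of at least 1 FPKM, with a median of 37.0 FPKM. For cluster d 8 of 10 did, with a median of 10.5 FPKM. For cluster a the figures were 6 of 10 and 23.6 FPKM, and for cluster c 8 of 10 and 21.5 FPKM. The highest neighbour reached 99.2 FPKM around cluster b and 213 FPKM around cluster d, against 175 and 236 FPKM around clusters a and c. Evx1 and Evx2, homeobox genes at the outer ends of clusters a and d, were listed at 0 in every library, and Evx2 is the nearest neighbour on the Hoxd13 side of cluster d.

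With Msx1 raised, small changes in both directions were found. Called genes numbered 7 of the 18 tested (38.9%), against 54.4% of all genes tested, a share below that background. Of these, 5 were higher (Hoxa3, Hoxa7, Hoxa9, Hoxa10 and Hoxc9) and 2 were lower (Hoxc4 and Hoxc10). Over all genes 22.0% were called higher and 32.4% lower. Groups did not overlap for 9 of the 18 Hox genes, namely those 7 with Hoxc11 (lower) and Hoxc13 (higher). That is 50%, against 62.3% of all genes. The median change was -0.0023 over the 18 Hox genes and -0.07 over all genes tested.

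Changes of Hox genes were small on the log2(FPKM + 1) scale, which understates changes of low genes. The largest was 0.39, and none reached 0.5, whereas 23.0% of all genes tested did. With a pseudocount of 0.1 the uncalled change of Hoxa2, a low gene, was 0.60 (adjusted p = 0.0922), past 0.5. The median size of change was 0.22 for Hox genes and 0.24 for all genes, so the typical Hox gene moved about as far as the typical gene and the difference lies among the large changes. The 95% intervals of the tested Hox genes other than Hoxc5 lay between -0.52 and 0.66. The cumulative plot of change sizes shows this.

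**Figure D2:**
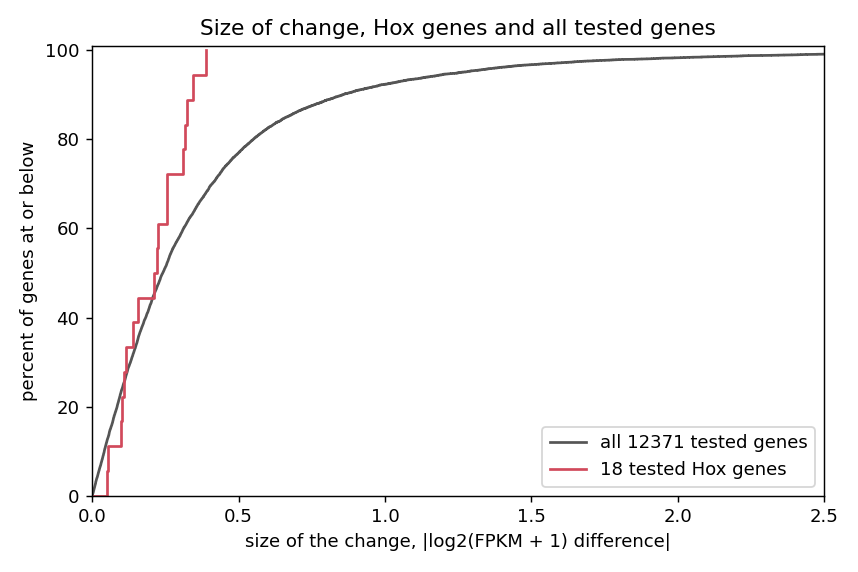
Cumulative percent of genes (vertical axis) by size of change in log2(FPKM + 1), either direction (horizontal axis, drawn to 2.5), for the 18 tested Hox genes and all 12371 tested genes. The Hox line ends at 0.39, while 23.0% of all genes lie at 0.5 or more.

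In cluster a, 4 genes rose and 5 were not called. Values per library are given for the called genes, a choice made after their changes were seen, except for Hoxa10 and Hoxc10, which were due as the most abundant of their clusters. Hoxa10 rose by 0.31 (SE 0.05, adjusted p = 0.0016), a ratio of 1.25. Hoxa9 stood at 8.84, 10.2 and 8.71 FPKM in control and 10.8, 11.4 and 11.5 FPKM in Msx1 libraries. Its groups did not overlap, and it rose by 0.26 (SE 0.07, adjusted p = 0.0164).

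Hoxa7, a thoracic gene also known from leukaemia, had 4.97, 5.30 and 5.33 FPKM in control and 5.75, 6.04 and 6.78 FPKM in Msx1 libraries. The lowest Msx1 library was above the highest control library, and the gene rose by 0.21 (SE 0.07, adjusted p = 0.0384). Hoxa3, required for thymus and parathyroid, had 2.67, 3.02 and 2.72 FPKM in control and 3.84, 4.13 and 3.28 FPKM in Msx1 libraries. It rose by 0.32 (SE 0.09, adjusted p = 0.0147), with no overlap. The genes that rose were not contiguous, since Hoxa5 and Hoxa6 lie between Hoxa3 and Hoxa7.

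The other tested genes of cluster a were not called. Hoxa2 had a change of 0.33 (control 0.759 ± 0.194, Msx1 1.22 ± 0.421 FPKM, adjusted p = 0.0928), as large as that of Hoxa3 but with a wider spread. Hoxa5, needed for lung and neck vertebrae, had -0.25 (4.10 ± 0.441 and 3.28 ± 0.436 FPKM, adjusted p = 0.0583). Hoxa6 had -0.14 (3.04 ± 0.927 and 2.61 ± 0.312 FPKM, adjusted p = 0.466), a sign that turned to 0.04 without control library 2. Hoxa11 had 0.10 (adjusted p = 0.273), but was called higher at equal totals without Msx1 (0.21, adjusted p = 0.0394) and with sample weights (0.20, adjusted p = 0.0079). Hoxa13 had -0.12 (1.65 ± 0.228 and 1.45 ± 0.300 FPKM, adjusted p = 0.408). The 10 uncalled genes other than Hoxc5, over both clusters, had 95% intervals within -0.49 and 0.66. The lower end is that of Hoxa6 and the upper end that of Hoxa2. Other intervals were narrower, such as -0.14 to 0.24 for Hoxc12. For each gene, changes within its own interval are not excluded.

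In cluster c, 1 gene rose, 2 fell and 6 were not called. Hoxc9 showed the largest change on the log2(FPKM + 1) scale, although with pseudocounts of 0.5 and 0.1 the uncalled change of Hoxa2 was larger (0.43 and 0.60, against 0.40 and 0.41 for Hoxc9). It had 11.4, 11.7 and 12.6 FPKM in control and 16.0, 15.4 and 16.2 FPKM in Msx1 libraries, groups well apart, and rose by 0.39 (SE 0.06, adjusted p = 0.0008), a ratio of 1.33. Hoxc4, of the neck level, had 6.70, 6.61 and 6.29 FPKM in control and 4.58, 5.56 and 4.70 FPKM in Msx1 libraries. It fell by 0.34 (SE 0.08, adjusted p = 0.0067), a ratio of 0.758. Hoxc10 fell by 0.22 (SE 0.05, adjusted p = 0.0074), a ratio of 0.853.

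Not called were Hoxc6 at -0.11 (10.3 ± 1.21 and 9.44 ± 0.121 FPKM, adjusted p = 0.29), Hoxc8, a thoracic gene, at -0.10 (1.57 ± 0.338 and 1.38 ± 0.218 FPKM, adjusted p = 0.478), and Hoxc11 at -0.16 (adjusted p = 0.126). Hoxc12 had 0.05 (2.29 ± 0.175 and 2.41 ± 0.262 FPKM, adjusted p = 0.638) and Hoxc13 had 0.23 (10.3 ± 0.858 and 12.3 ± 1.31 FPKM, adjusted p = 0.0618). Hoxc13 was called higher under each of the 3 scalings, with adjusted p of 0.0258 (median of ratios), 0.0485 (quantile) and 0.0083 (equal totals without Msx1). Hoxc5 was read with a wide error. It had 2.52, 3.37 and 0.324 FPKM in control libraries 1 to 3 and 2.66, 2.86 and 0.284 FPKM in Msx1 libraries 1 to 3. Replicate 3 was low in each group and the others were alike, and the change was -0.05 with a 95% interval from -1.29 to 1.18 (adjusted p = 0.939). In limma with the replicate number as a block, the Hoxc5 change was again -0.05 (SE 0.083, against 0.53 without the block, adjusted p = 0.607). The cause of the low values was not tested.

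**Figure D3:**
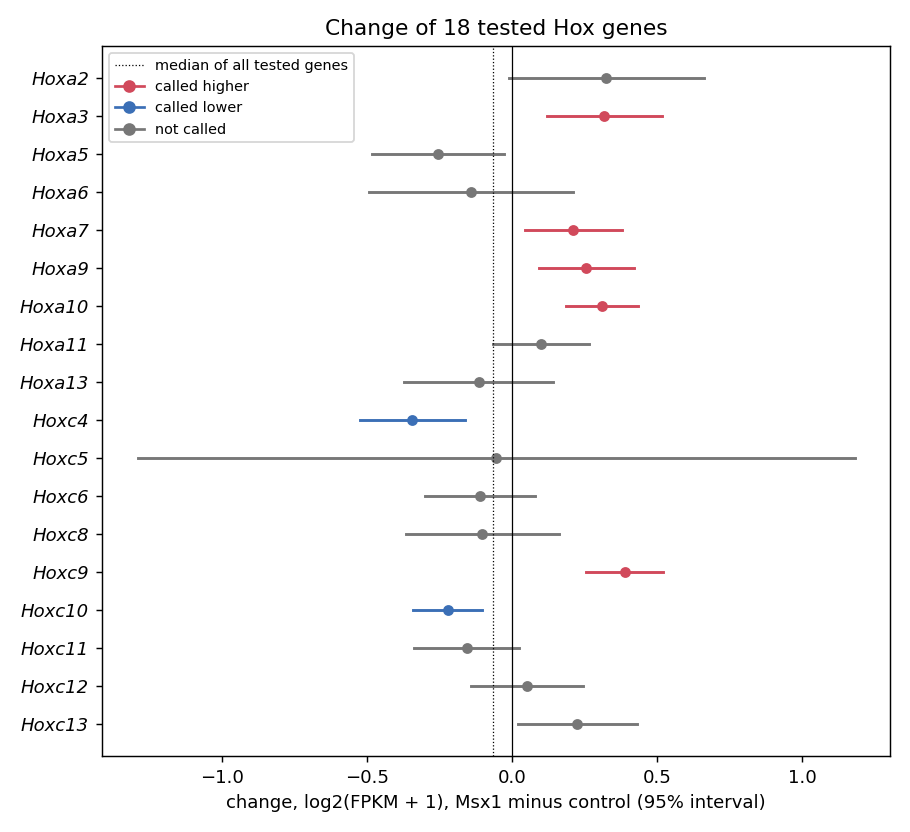
Change of the 18 tested Hox genes in log2(FPKM + 1), Msx1 minus control (points), with 95% intervals from limma (bars), by cluster and paralog number. Colour marks genes called higher (5), lower (2) and not called (11), the solid line marks no change, and the dotted line marks the median of all tested genes, -0.07. Hoxc5 has the only interval that passes beyond -1 and 1.

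Several of these calls ended when 1 library was left out, though the changes stayed similar in size. Leaving out control library 3 left 2 Hox genes called higher and leaving out Msx1 library 2 left 3, against 5 with all libraries. Leaving out control library 1 gave 4 genes called lower in place of 2, with Hoxa5 (adjusted p = 0.0282) and Hoxc6 (adjusted p = 0.0323) added. Hoxa3 missed the threshold without control library 3 (adjusted p = 0.0501), Msx1 library 1 (adjusted p = 0.0519) or Msx1 library 2 (adjusted p = 0.0569), with changes of 0.30, 0.30 and 0.26 against 0.32. Hoxa9 missed it without control library 3 (adjusted p = 0.0618), Msx1 library 2 (adjusted p = 0.0551) or Msx1 library 3 (adjusted p = 0.0574), with changes of 0.22, 0.25 and 0.24 against 0.26. Hoxa7 missed it without any one of 5 libraries, with adjusted p from 0.0582 without control library 2 to 0.130 without Msx1 library 3, the others being control libraries 1 and 3 and Msx1 library 2. Hoxa5 was also called without Msx1 library 1 (adjusted p = 0.0274), Hoxa2 without Msx1 library 3 (adjusted p = 0.0278), and Hoxc13 without control library 1 (adjusted p = 0.0399) or Msx1 library 2 (adjusted p = 0.0486). Hoxc9, Hoxc4, Hoxc10 and Hoxa10 kept their calls with any 1 library left out.

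Ratios between genes within a library do not depend on scaling by a single factor per library, though quantile normalization can change them. Hoxc9 and Hoxc10 are neighbours, with 5133 bases between them, and their ratio was 0.313, 0.317 and 0.322 in control libraries and 0.509, 0.465 and 0.518 in Msx1 libraries. The ratio was 1.57-fold higher in Msx1 cells, and its groups did not overlap. In paralog group 10, Hoxa10 over Hoxc10 was 0.670, 0.730 and 0.669 in control and 1.02, 0.978 and 1.03 in Msx1 libraries, 1.46-fold higher. Since both ratios were formed from genes already seen to differ, they are descriptions without a test. The sum of group 10 was 63.3 ± 2.34 FPKM in control against 64.2 ± 1.09 FPKM in Msx1 cells, a difference smaller than its spread, although it came to 4.34 and 5.87 FPKM under median-of-ratios and equal-totals scaling. In paralog group 9 both partners rose, and their ratio, Hoxa9 over Hoxc9, overlapped between groups (0.780 ± 0.0879 and 0.707 ± 0.0312). The sum of group 9 was 21.1 ± 0.866 FPKM in control against 27.1 ± 0.573 FPKM in Msx1 cells. In group 11 neither Hoxa11 nor Hoxc11 was called as deposited, and the sum was 41.0 ± 3.25 and 40.4 ± 1.71 FPKM. Their ratio, Hoxa11 over Hoxc11, was 1.01, 1.21 and 1.03 in control and 1.24, 1.28 and 1.38 in Msx1 libraries. It was 1.202-fold higher in Msx1 cells, without overlap, and may include reads of Hoxa11os.

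**Figure D4:**
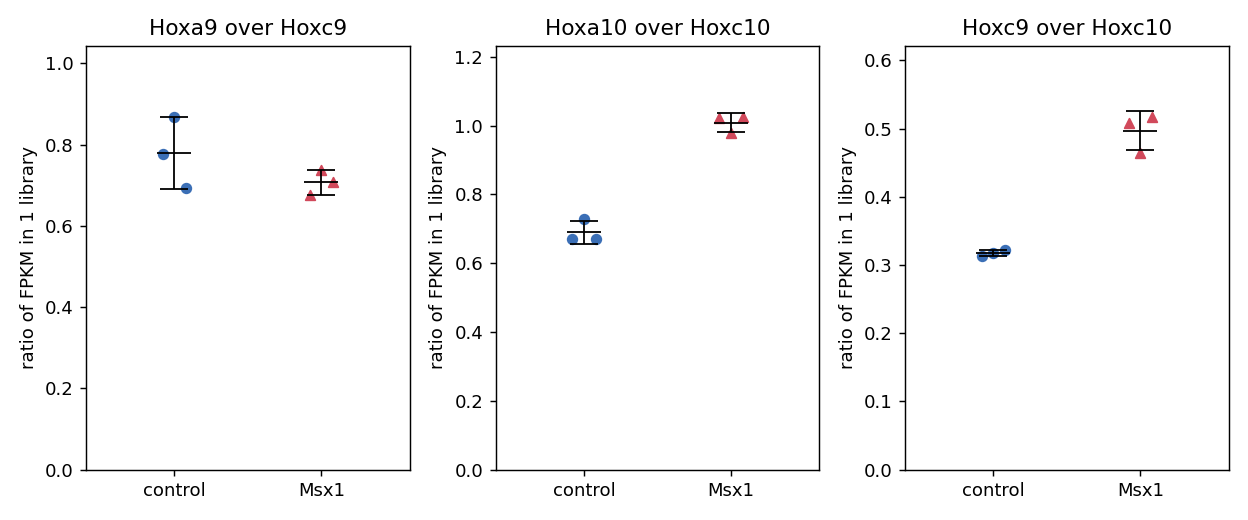
Ratio of FPKM between Hox genes in each library (points; circles, control; triangles, Msx1), with group mean and SD (bars, n = 3), for Hoxa9 over Hoxc9, Hoxa10 over Hoxc10 and Hoxc9 over Hoxc10. The last pair of ratios has all Msx1 libraries above all control libraries, while Hoxa9 over Hoxc9 overlaps.

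The balance of the clusters moved by a few percent of the Hox total. Cluster a made up 41.98 ± 1.36% of Hox FPKM in control libraries and 46.5 ± 0.356% in Msx1 libraries, without overlap, and cluster c 57.9 ± 1.41% and 53.5 ± 0.355%. Within cluster a, groups 9 to 13 went from 58.0 ± 2.58 to 67.7 ± 1.25 FPKM, and groups 2 to 7 from 16.1 ± 1.59 to 17.2 ± 0.626 FPKM. The sum of cluster a was higher in Msx1 cells by 10.9 FPKM as deposited, and by 15.1 and 17.0 FPKM after scaling by median of ratios or to equal totals without Msx1. The sum of cluster c was lower by 4.41 FPKM as deposited (difference -4.41), but the sign turned to 0.95 and 3.43 FPKM under those scalings, so it has no stable direction.

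The rise of Hoxa10 lay in 1 of its transcripts. NM_008263, from the downstream start at 52234939 and with an annotated reading frame of 416 codons, had 6.50, 6.39 and 5.93 FPKM in control and 11.5, 11.3 and 12.4 FPKM in Msx1 libraries. Each Msx1 library was far above each control library. With transcripts kept separate (17764 tested, 32.3% called), it rose by 0.81 (SE 0.07, adjusted p = 4.60e-04), a ratio of 1.87. NM_001122950, from a start 5915 bases further upstream and with a reading frame of 94 codons, had 17.9, 20.6 and 20.2 FPKM in control and 20.7, 21.0 and 19.8 FPKM in Msx1 libraries. Its groups overlapped, with a change of 0.07 (SE 0.07, adjusted p = 0.496). Of the 6.41 FPKM by which Hoxa10 differed between the group means, 5.45 FPKM came from NM_008263. Its share of Hoxa10 FPKM lay between 22.7% and 26.7% in control libraries and between 35.0% and 38.5% in Msx1 libraries.

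Hoxa9 also has a pair of transcripts, of which 1 rose. NM_010456 had 5.23, 4.61 and 4.69 FPKM in control and 6.75, 6.86 and 6.73 FPKM in Msx1 libraries, without overlap, and rose by 0.41 (SE 0.07, adjusted p = 0.0081). NM_001277238 had 3.61, 5.59 and 4.02 FPKM in control and 4.06, 4.49 and 4.76 FPKM in Msx1 libraries, a change of 0.02 (adjusted p = 0.925). The ratio of NM_010456 to NM_001277238 overlapped between groups (1.45, 0.824 and 1.17 in control, 1.66, 1.53 and 1.41 in Msx1 libraries), unlike that of the Hoxa10 pair (0.323 ± 0.0371 and 0.573 ± 0.0459). Read division among transcripts of 1 gene is an estimate by StringTie, so single transcripts are less certain than their sum. When each gene was represented by its most abundant transcript alone, the Hoxa10 change was 0.07 (adjusted p = 0.450), because that transcript is NM_001122950. Transcripts kept separate were added after the data had been seen. The RefSeq span of Hoxa3 covers Hoxa4, Hoxa5 and Hoxa6, so reads there could be split between them.

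**Figure D5:**
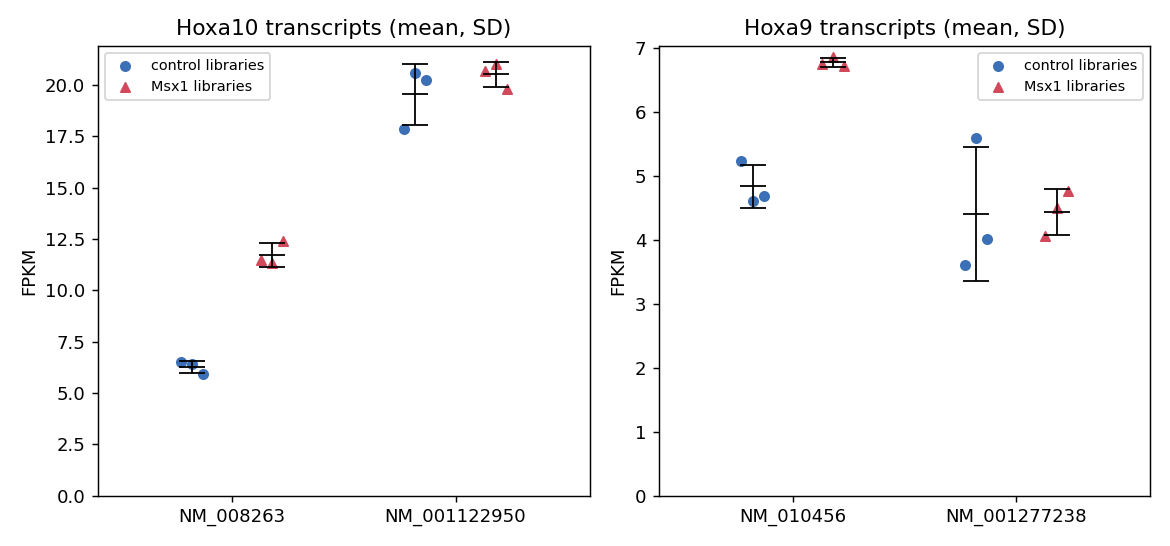
FPKM of both Hoxa10 transcripts (left) and both Hoxa9 transcripts (right) in each library (circles, control; triangles, Msx1), with group mean and SD (bars, n = 3). NM_008263 has means of 6.27 FPKM in control and 11.7 FPKM in Msx1 libraries, while NM_001122950 overlaps between the groups.

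Non-coding transcripts of the clusters were not called as deposited. Of 22 such genes found by position, 8 were tested and 9 were listed at 0 in all libraries. Of those tested, 0 were called by limma (0 also at an unadjusted p under 0.05), against 54.4% of all genes. With sample weights 3 were called higher and 1 lower. Hoxa11os, the antisense partner of Hoxa11, stood at 23.4 ± 0.750 FPKM in control against 22.4 ± 0.472 FPKM in Msx1 cells (change -0.06, adjusted p = 0.339, with the sign turning to 0.014 and 0.049 under median-of-ratios and equal-totals scaling). No source used here says that strand was used in counting, so reads of Hoxa11 and Hoxa11os cannot be told apart. Hotair, transcribed within cluster c and known for binding Polycomb proteins, stood at 2.66 ± 0.281 and 3.13 ± 0.275 FPKM (adjusted p = 0.12), but was called higher under median-of-ratios (adjusted p = 0.0442) and quantile scaling (adjusted p = 0.0419). Hotairm1, an antisense transcript of cluster a, stood at 1.91 ± 0.524 and 2.63 ± 0.993 FPKM (adjusted p = 0.24), and was called higher with the replicate number as a block (adjusted p = 0.0354). Hoxaas3 stood at 1.65 ± 0.176 and 1.40 ± 0.375 FPKM (adjusted p = 0.317). Rows for microRNA hairpins in the clusters are too short for this kind of library and are not read.

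Among the neighbours of the clusters, 35 were tested, of which 5 rose, 16 fell and 14 were not called. That is 60.0% called against 54.4% of all genes, and at equal totals without Msx1 9 were called lower in place of 16. Snx10, a sorting nexin near cluster a, rose from 10.2 ± 0.654 to 18.9 ± 0.683 FPKM (change 0.83, adjusted p = 1.79e-05). Atf7, a transcription factor gene near cluster c, rose from 18.8 ± 1.50 to 27.8 ± 0.334 FPKM (change 0.54). On the flanks of silent cluster b, Atp5g1, a subunit of ATP synthase, fell from 60.4 ± 4.16 to 40.0 ± 0.960 FPKM and Copz2, a coat protein of Golgi vesicles, from 107 ± 7.16 to 74.9 ± 1.51 FPKM. Genes called lower numbered 5 of 10 tested around cluster c and 5 of 9 around cluster d, and 3 of 8 around each of clusters a and b. Over all genes tested 32.4% were called lower, and these small counts do not set the clusters apart.

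TALE cofactors of Hox proteins were all transcribed. Of 12 tested, 2 rose, 4 fell and 6 were not called, so that 50% were called, near the 54.4% of all genes. At equal totals 4 were called higher and 1 lower. Pknox2 rose from 1.39 ± 0.145 to 3.44 ± 0.0811 FPKM (change 0.89, adjusted p = 2.54e-05), and Pbxip1, which encodes a Pbx-binding protein, from 57.0 ± 1.71 to 71.5 ± 0.576 FPKM. Pbx3, a DNA-binding partner, fell from 5.30 ± 0.447 to 3.98 ± 0.154 FPKM (change -0.34), but with its most abundant transcript alone the change was -0.05 and the call was lost (adjusted p = 0.794).

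The Polycomb list of 31 tested genes had 5 higher, 6 lower and 20 not called, 35.5% called, below the 54.4% of all genes. Rybp, of the variant complex PRC1, rose from 7.02 ± 0.868 to 24.1 ± 1.34 FPKM, and Cbx7, a reader of methylated histone H3, from 6.37 ± 0.394 to 16.5 ± 0.643 FPKM. Phf1, an accessory protein of PRC2, rose from 20.9 ± 0.6001 to 27.5 ± 0.934 FPKM, a call lost with its most abundant transcript alone (change 0.27, adjusted p = 0.263). Ezh2, the methyltransferase of PRC2, fell from 13.7 ± 0.283 to 9.42 ± 0.200 FPKM (change -0.50, adjusted p = 0.000107). The trithorax and demethylase list of 19 had 5 higher, 2 lower and 12 not called (36.8% called). Kdm6b, an H3K27 demethylase, rose from 13.8 ± 0.373 to 17.0 ± 1.08 FPKM. Kmt2a, the methyltransferase best known for keeping Hox genes on, rose from 12.3 ± 1.76 to 16.5 ± 1.02 FPKM and Kmt2b from 6.56 ± 0.484 to 8.03 ± 0.0473 FPKM. Dpy30, a shared subunit of these complexes, fell from 41.0 ± 3.79 to 33.6 ± 2.76 FPKM, a call that ended without any one of 4 libraries (control 1 or 3, Msx1 1 or 2), with adjusted p from 0.0571 to 0.0912. It was also lost under median-of-ratios scaling (adjusted p = 0.0904), at equal totals (adjusted p = 0.0816) and with the most abundant transcript alone (adjusted p = 0.0545). In the insulation and looping list of 11 (18.2% called), 0 rose by limma (0 also at an unadjusted p under 0.05) and 2 fell. These were the cohesin subunits Rad21 (88.1 ± 4.28 to 72.6 ± 1.45 FPKM) and Smc3 (16.3 ± 1.61 to 12.6 ± 0.888 FPKM). Both were lost at equal totals, with adjusted p of 0.0669 and 0.0907.

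Among signals known to act upstream of Hox genes, changes far larger than that of any Hox gene reported here were found. Of 13 tested genes of retinoic acid, FGF, Gdf11 and Wnt signalling, 9 rose and 2 fell (84.6% called, against 54.4% of all genes, of which 22.0% were higher and 32.4% lower). The median change of these 13 was 0.40, against -0.07 over all genes. Those with the smallest adjusted p were all of retinoid handling, but so were most entries of the list. Besides retinoid genes it held only Fgf8, Gdf11, Wnt3 and Wnt3a, so it cannot set retinoids apart from the other signals. Stra6, the retinol transporter, rose from 0.314 ± 0.0195 to 40.1 ± 1.25 FPKM, and Rdh10, which makes retinaldehyde, from 15.1 ± 0.465 to 100.4 ± 2.70 FPKM. Stra6 passed the level filter through the Msx1 libraries alone, and its rise is part of the count above. Aldh1a1, which makes retinoic acid, rose from 11.1 ± 0.420 to 37.4 ± 1.99 FPKM, and Cyp26b1, which degrades it, from 0.730 ± 0.150 to 11.0 ± 0.386 FPKM. Hoxb1, known as a direct retinoic acid target in the embryo, was listed at 0.

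The list of limb and positional transcription factors had 16 tested, with 3 higher, 6 lower and 7 not called, or 56.25% called, near the 54.4% of all genes. Tbx3, of the posterior limb, rose from 5.20 ± 0.144 to 20.1 ± 1.47 FPKM, and Irx5 from 11.1 ± 1.15 to 16.8 ± 0.684 FPKM. Prrx1, a marker of limb mesenchyme, fell from 121 ± 13.5 to 30.6 ± 1.12 FPKM. Of 12 tested genes reported elsewhere as Hox targets, 5 rose, 3 fell and 4 were not called (66.7% called, against 54.4% of all genes). Bmp7 was listed at 0 in all control libraries and stood at 19.6 ± 1.04 FPKM in Msx1 cells. It therefore passed the level filter through the Msx1 libraries alone, and its rise is part of that count. Efnb1 rose from 12.9 ± 1.22 to 53.1 ± 2.02 FPKM and Spry1 from 4.43 ± 1.00 to 19.5 ± 0.862 FPKM, and Fgf10 fell from 29.5 ± 2.55 to 8.20 ± 0.294 FPKM. Of the other homeobox genes outside the clusters that were listed (ParaHox, Evx, Meox and Gbx families and their relatives), only En1 passed the filter, at 11.9 ± 1.05 and 13.6 ± 0.402 FPKM (adjusted p = 0.0664). En1 was called without control library 1 (adjusted p = 0.0394) and under each of the 3 scalings.

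Counts of these lists moved with single libraries and with scaling. At equal totals without Msx1, 9 Polycomb and 5 limb genes were called higher. Without control library 2 or Msx1 library 1, 2 TALE genes were called lower. Without control library 3 or Msx1 library 1, 3 Polycomb genes were called higher. Without control library 3, Msx1 library 1 or Msx1 library 2, 3 trithorax genes were higher and none lower, and without control library 2 or Msx1 library 3, 1 was lower. Without control library 1, 4 insulation genes were lower and 5 limb genes higher. Without Msx1 library 1 or 3, 10 neighbours were lower. Without Msx1 library 2, 1 non-coding transcript was higher.

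Markers of cell state also moved with the groups. Over all genes tested, 54.4% were called, 22.0% higher and 32.4% lower. Of 7 tested myoblast markers, 1 rose, 3 fell and 3 were not called (57.1% called, near the share of all genes). The myoblast list summed to 254 to 258 FPKM in control and 221 to 232 FPKM in Msx1 libraries. Fibroblast markers (5 of 8 tested, 4 higher and 1 lower, 100% called) summed to between 43.9 and 51.4 FPKM in control and between 172 and 185 FPKM in Msx1 libraries. Differentiating muscle markers (8 of 11 tested, 5 higher and 1 lower, 75% called) summed to 25.3 to 27.7 FPKM and 59.4 to 69.5 FPKM. Markers of other cell types that passed the filter were mostly lower. Of 7 blood markers 5 were listed at 0 in all libraries, and the 1 tested, Cd68, a macrophage lysosomal protein, fell from 3.00 ± 0.366 to 1.05 ± 0.114 FPKM (adjusted p = 6.07e-05). Of 7 adipocyte markers 3 were listed at 0 and 3 tested, of which 2 fell, Pparg (4.3996 ± 0.362 to 1.32 ± 0.0417 FPKM) and Fabp4 (1.58 ± 0.188 to 0.315 ± 0.213 FPKM). Fabp4 passed the level filter through the control libraries alone. The 1 tested epithelial marker, Krt14, fell from 18.1 ± 2.30 to 9.55 ± 0.769 FPKM, and the 1 tested neural marker, Tubb3, from 8.15 ± 0.629 to 2.49 ± 0.462 FPKM. Of 2 tested bone and cartilage markers Bglap rose (3.40 ± 0.671 to 5.05 ± 0.552 FPKM), and no endothelial marker passed the filter. The part of these shifts in the Hox changes was not tested. In bulk libraries, fewer cells of a type and less RNA per cell cannot be told apart.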

How the data were processed

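RNA sequencing of C2C12 cells gave 6 libraries, 3 control and 3 Msx1. Trizol RNA and a NEBNext Ultra kit were used, per the labels' protocols. The authors deposited FPKM per RefSeq transcript (38468 rows, 1 column per sample). The tools were Trimmomatic, HISAT2 and StringTie on GRCm38 (mm10), per the submitters' processing notes. Their settings and versions were not seen in the sources used here. Control columns, headed as vector, were matched to control samples by number. Symbols came from RefSeq (38193 rows) and GENCODE (156 rows), 119 rows had none, and FPKM were summed per gene.

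The filter kept genes averaging at least 0.5 FPKM over all libraries, so genes of the related lists could pass through a single group. On log2(FPKM + 1), limma 3.58.1 (R 4.3.3) was run with an intensity trend, Benjamini-Hochberg adjustment over all genes tested and a threshold of 0.05. The test was tried on simulated data whose planted changes were larger than that of any Hox gene reported here, so changes of that size were not checked. SE is limma's moderated standard error. Depth was estimated from the spacing of low values, searched between 12 and 30 M fragments. The best step put 42.5% to 47.3% of them within 0.1 of whole fragments (20% for an unrelated step), so whole reads were not recovered.

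Of 39 genes that met the Hox definition, 1 stayed in the fit but is not reported here, is in no Hox count, sum or share, and likewise some genes of the related lists are not named. Every other tested Hox gene was named, and so were untested ones above 0.1 FPKM. Values per library were given for the most abundant of clusters a and c. In cluster b they were given for Hoxb5, the highest by a single value but not by its mean. From each related list up to 4 tested genes with the smallest adjusted p were named. The members and lists were chosen with earlier results of these data known. Alternatives covered pseudocount, filter, scaling, variance model, replicate block, transcript summing and leaving out each library.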

Additional observations from a re-analysis of the deposited data

How the results depend on the processing

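Each Hox gene was refitted under 18 alternatives (17 for Hoxa2). Hoxc4 and Hoxc9 were called in all 18, Hoxa10 and Hoxc10 in 17, Hoxa3 and Hoxa9 in 15 and Hoxa7 in 11, and none of these 7 genes changed sign. Hoxc10 was lost at equal totals (adjusted p = 0.158). Hox genes called higher numbered 8 with sample weights and 3 with the most abundant transcript alone, and from 2 to 5 with 1 library left out. Those called lower numbered 4 with sample weights, 1 at equal totals and from 2 to 4 with 1 library left out. Over the related lists 34 genes were higher and 41 lower, against 22 lower at equal totals without Msx1. With 1 library left out the change of Hoxa6 ranged from -0.25 to 0.040 (the latter without control replicate 2) and that of Hoxc5 from -0.58 to 0.46 (positive without control replicate 1 or 2 or Msx1 replicate 3). That of Hoxc5 also reversed to 0.013 at equal totals and 1.01 with sample weights (adjusted p = 0.0503). That of Hoxa11os reversed to 0.014 under median-of-ratios scaling and 0.049 at equal totals. The cluster a difference was 15.1 FPKM under median-of-ratios scaling, 17.0 FPKM at equal totals and 5.39 FPKM with the most abundant transcript alone. The cluster c difference was 0.95 FPKM under median-of-ratios scaling, -1.62 FPKM after quantile normalization and 3.43 FPKM at equal totals. Scaling moved the median of all genes by at most 0.097, and the share of calls that were higher from 40.4% to 51.2% (median of ratios), 45.8% (quantile) and 55.4% (equal totals). Apart from these scalings and the transcript choice, which change the values by construction, the cause was not tested. Whether replicate numbers pair the samples is not settled. Deviations of same-numbered libraries correlated at 0.0553, 0.226 and 0.0366. Control 2 and control 3 correlated best with the Msx1 library of their own number, and control 1 with Msx1 3 (0.133). With the replicate number as a block, 7 Hox genes were higher and 2 lower, with Hoxa2 (adjusted p = 0.0231) and Hoxc13 (adjusted p = 0.0350) added. Depth is a rough estimate, so precision at low FPKM is not known.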
